A study of Mus musculus with 15 samples.

Results

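The genes described here are the 3 mouse transforming growth factor beta (TGF-β) ligands, *Tgfb1*, *Tgfb2* and *Tgfb3*, and the 3 TGF-β receptors, *Tgfbr1*, *Tgfbr2* and *Tgfbr3*. They were taken by symbol from a deposited table of 54232 genes, and all 6 were found and passed the filter on low counts that left 22151 genes. Bulk RNA sequencing was done on palates of wild-type mice, with no mutant or treated group, before birth (E13.5, E14.5, E15.5 and E16.5, in days of gestation) and on the day of birth (P0). Each of the 5 stages had 3 libraries, and each of these 15 libraries was a pool of 3 embryos or newborns, so the spread between libraries is one between pools. E13.5 and E14.5 are called early here and E15.5, E16.5 and P0 late, since the palatal shelves of the mouse usually fuse between E14.5 and E15.5.

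TGF-β ligands are secreted as latent complexes bound to the extracellular matrix and are set free by integrins and proteases. A free ligand joins the type II receptor, made from *Tgfbr2*, to the type I receptor, made from *Tgfbr1*, which then phosphorylates Smad2 and Smad3. These enter the nucleus with Smad4 and change transcription, while a second branch runs through the kinase Tak1, the product of *Map3k7*. *Tgfbr3* encodes betaglycan, a co-receptor that presents ligand, above all TGF-β2, which binds the type II receptor poorly by itself. In the palate *Tgfb3* is best known from the medial edge epithelium, the seam of cells that must disappear for the shelves to fuse, and mice without it have a cleft palate. *Tgfb1* and *Tgfb2* are known mostly from the mesenchyme, and both receptor genes of the signalling pair are needed in the palate too.

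Positions are on GRCm38 (mm10), as in the table. *Tgfb1* (ENSMUSG00000002603.15) lies at chr7:25687002-25705077 on the plus strand. *Tgfb2* (ENSMUSG00000039239.14) lies at chr1:186622792-186705989 on the minus strand and *Tgfb3* (ENSMUSG00000021253.7) at chr12:86056745-86079041 on the minus strand. *Tgfbr1* (ENSMUSG00000007613.15) lies at chr4:47353222-47414931 on the plus strand. *Tgfbr2* (ENSMUSG00000032440.13) lies at chr9:116084293-116175360 on the minus strand and *Tgfbr3* (ENSMUSG00000029287.14) at chr5:107106570-107289629 on the minus strand. All 6 are protein coding in the annotation. *Tgfb2*, *Tgfb3* and *Tgfbr3* overlap genes on the opposite strand (for *Tgfb3* these include *Ttll5*), which counting by strand keeps apart. *Tgfbr3* also overlaps 3 unconfirmed gene models on its own strand, *Gm42900*, *Gm43422* and *Gm43423*, so fragments shared with them may be missing from its count.

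The proximal promoters of the 2 ligand and 2 receptor genes that the RefSeq table holds are shown. A link between their motifs and the changes over the stages was not tested. Each line is the 250 bases before the RefSeq start (GRCm38.p6), 5′ to 3′ on the gene's own strand, with matches to the motifs searched in capitals. They cover chr7:25686752-25687001 (plus) for *Tgfb1*, chr1:186705990-186706239 (minus) for *Tgfb2*, chr4:47352972-47353221 (plus) for *Tgfbr1* and chr9:116175364-116175613 (minus) for *Tgfbr2*. *Tgfb3* and *Tgfbr3* were not matched.
Tgfb1: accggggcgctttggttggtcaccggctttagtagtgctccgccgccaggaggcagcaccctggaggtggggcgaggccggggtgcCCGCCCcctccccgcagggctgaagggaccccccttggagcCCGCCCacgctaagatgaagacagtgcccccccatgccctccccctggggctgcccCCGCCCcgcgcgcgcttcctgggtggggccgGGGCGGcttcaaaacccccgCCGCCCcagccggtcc
Tgfb2: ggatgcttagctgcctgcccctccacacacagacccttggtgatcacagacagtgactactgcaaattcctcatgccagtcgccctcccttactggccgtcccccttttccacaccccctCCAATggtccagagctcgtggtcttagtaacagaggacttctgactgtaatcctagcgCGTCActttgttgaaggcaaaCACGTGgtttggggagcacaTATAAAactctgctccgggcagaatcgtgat
Tgfbr1: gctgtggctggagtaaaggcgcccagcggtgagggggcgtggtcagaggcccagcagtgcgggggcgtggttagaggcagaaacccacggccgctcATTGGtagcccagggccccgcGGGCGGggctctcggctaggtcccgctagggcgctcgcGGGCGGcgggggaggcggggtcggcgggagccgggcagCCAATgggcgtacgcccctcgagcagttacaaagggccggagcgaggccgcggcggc
Tgfbr2: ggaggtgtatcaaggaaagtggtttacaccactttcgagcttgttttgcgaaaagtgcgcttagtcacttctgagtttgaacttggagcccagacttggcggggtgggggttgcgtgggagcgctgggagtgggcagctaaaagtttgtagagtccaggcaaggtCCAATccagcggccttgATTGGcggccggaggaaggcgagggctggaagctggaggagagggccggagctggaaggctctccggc

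The motifs were searched on both strands, and no matches overlapped. They were the TATA box (TATAAA, present in 12.4% of 32851 promoters of this length), the CCAAT box (CCAAT, 33.8%), the GC box (GGGCGG, 32.7%), an E-box (CACGTG, 6.02%), an AP-1 site (TGANTCA, 6.75%) and a short cAMP response element (TGACG, 17.8%). The *Tgfb1* promoter held 5 GC boxes and no other match, and 75.2% of its bases were G or C. *Tgfb2* alone of the 4 held a TATA box, 31 to 26 bases before its start. Its sequence also had the E-box at 51 to 46 bases before the start, the response element at 72 to 68 on the opposite strand and a CCAAT box at 130 to 126, with a GC content of 53.6%. The *Tgfbr1* promoter held 2 GC boxes and 2 CCAAT boxes at a GC content of 74.8%. The *Tgfbr2* promoter held 2 CCAAT boxes, at 85 to 81 and at 68 to 64 bases before its start, at a GC content of 58.4%. The median GC content of all promoters was 52.4%. The AP-1 letters were in none of the 4 windows.

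The libraries held 21.5 to 69.02 M counts, fewest at P0. The members had 594 to 12998 counts per library, far above 3 counts, the detection floor used here (0.0421 to 0.131 CPM, counts per M counts of a library; counting error only). Markers of the labelled tissue were present throughout: the 6 palatal mesenchyme markers summed to 656 to 1865 CPM and the 8 epithelial markers to 265 to 2749 CPM. Other tissues were present too. The 5 choroid plexus and brain markers summed to 1348 and 751 CPM in E14.5 replicates 1 and 3, to 484 CPM in P0 replicate 2 and to 12.9 to 221 CPM elsewhere. At E15.5 and E16.5 that sum was mostly 1 marker, *Clic6*, with means of 53.1 of 58.05 CPM and 43.4 of 55.1 CPM. *Ttr*, another of the 5, had means of 3.08 and 2.23 CPM there and of 635 CPM at E14.5. No marker was at 0 in any library except the ciliated-cell marker *Tmem212*, in E14.5 replicate 3. Of 4 Y-linked genes, all 3 E16.5 libraries and 3 others had at most 0.425 CPM in sum and the other 9 libraries at least 60.7 CPM, so sex and stage are partly mixed. In bulk tissue, fewer cells of a type and less RNA per cell cannot be told apart.

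**Figure D1:**
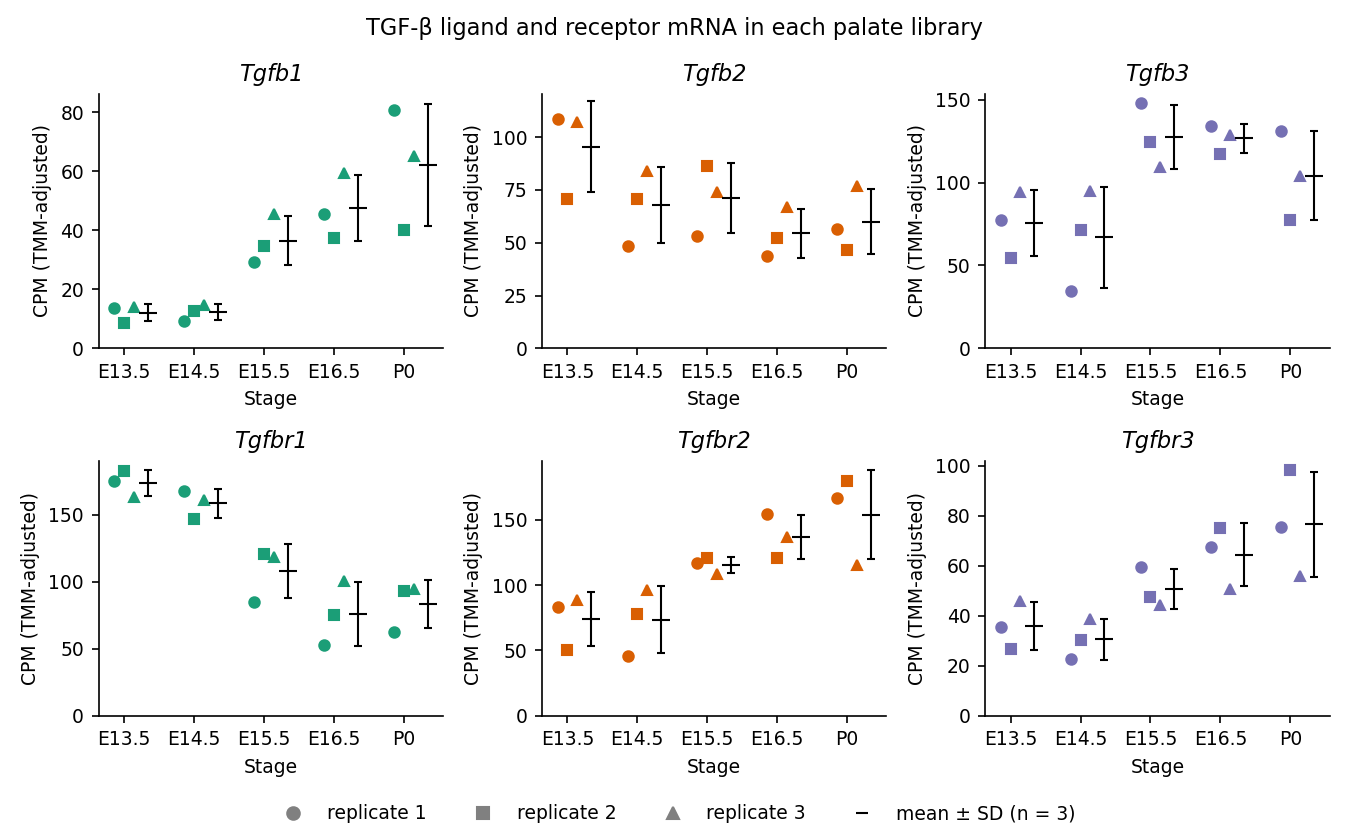
Level of each gene in CPM (vertical axis, linear from 0) at the 5 stages (horizontal axis), with 1 point per library, a bar at the stage mean and the SD as error bar (n = 3). *Tgfb1* rose from a mean of 12.1 to 62.0 CPM, *Tgfbr2* and *Tgfbr3* ended higher than they began, and *Tgfbr1* fell from 174 to 83.5 CPM.

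Between the early and the late libraries, *Tgfb1*, *Tgfb3*, *Tgfbr2* and *Tgfbr3* rose and *Tgfbr1* fell, while *Tgfb2* did not pass the test. So 5 of 6 members passed an adjusted p of 0.05 in edgeR's quasi-likelihood test, against 64.3% of all genes tested (32.2% higher, 32.2% lower), a share of change that is high for the whole transcriptome. In the F test over the 5 stages 4 members passed (*Tgfb1*, *Tgfbr1*, *Tgfbr2* and *Tgfbr3*), against 59.1% of all genes. These shares are near the background, and so the count of members is no result about them; their sizes and directions are given below.

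*Tgfb1*, the ligand best known from immune cells, platelets and bone, rose most of the 6. The E13.5 libraries held 13.6, 8.69 and 13.99 CPM, those of E14.5 9.25, 12.7 and 14.5 CPM, those of E15.5 29.1, 34.6 and 45.6 CPM, those of E16.5 45.6, 37.3 and 59.4 CPM, and those of P0 80.8, 40.03 and 65.3 CPM. Every late library was above every early one. The late mean was 48.6 CPM and the early mean 12.1 CPM, a log2 fold change of 1.97 (SE 0.20, edgeR adjusted p = 5.41e-06), or 3.92-fold. The order of the stage means followed age: 12.1 ± 2.95 (SD, n = 3 throughout), 12.2 ± 2.69, 36.4 ± 8.38, 47.4 ± 11.1 and 62.0 ± 20.6 CPM. Of the neighbouring stages, those that differed beyond their spread were E14.5 and E15.5 (log2 fold change 1.58, SE 0.29, edgeR adjusted p = 0.00348). That call was lost only when E14.5 replicates 1 and 3, which held the most choroid plexus markers, were both left out. This left 1 E14.5 library, and the part of those markers in the change was not tested. The log2 change ranged from 1.39 to 1.72 over all alternatives.

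*Tgfb2*, the isoform that depends most on betaglycan, was the ligand with the least clear change. Levels per library were 109, 70.5 and 107 CPM (E13.5), 48.4, 70.5 and 83.97 CPM (E14.5), 53.4, 86.4 and 73.9 CPM (E15.5), 43.7, 52.4 and 66.99 CPM (E16.5), and 56.6, 46.4 and 76.6 CPM (P0). Early and late libraries overlapped. The log2 difference, late minus early, was -0.39 (95% interval -0.76 to -0.02, edgeR adjusted p = 0.0629), and it passed in 6 of 22 alternatives, among them the fit with the replicate number as a block (adjusted p = 0.0340). The order of the means from the lowest was E16.5 (54.3 ± 11.8 CPM), P0 (59.9 ± 15.4), E14.5 (67.6 ± 17.97), E15.5 (71.2 ± 16.7) and E13.5 (95.3 ± 21.5), and no neighbours in that order differed beyond their spread. The distant pairs E16.5 and E13.5 (log2 -0.81, SE 0.27, edgeR adjusted p = 0.0250) and P0 and E13.5 (log2 -0.67, SE 0.27, adjusted p = 0.0475) passed. The P0 call held in 9 of 23 alternatives, with adjusted p from 0.0225 to 0.190.

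*Tgfb3*, the fusion ligand of the medial edge, gave 77.5, 54.8 and 94.3 CPM in the E13.5 libraries, 34.5, 71.4 and 95.02 CPM in those of E14.5, 148, 124 and 109.7 CPM in those of E15.5, 134, 117 and 129 CPM in those of E16.5, and 131, 77.5 and 104 CPM in those of P0. All E15.5 and E16.5 libraries were above all early ones, while 1 P0 library lay among the early values. The late mean was 119 CPM and the early mean 71.3 CPM, a log2 fold change of 0.74 (SE 0.21, edgeR adjusted p = 0.00691). From E14.5 to E15.5 the log2 change was 0.93 (SE 0.31, edgeR adjusted p = 0.0456). That call was marginal and passed in 12 of 23 alternatives (adjusted p 0.0161 to 0.167). It was lost on leaving out any 1 of 8 libraries: E13.5 replicate 1, E14.5 replicates 1 and 2, each of the 3 E15.5 replicates, and E16.5 replicates 2 and 3. Without E14.5 replicate 1, the lowest library, the change was also smaller, at 0.60 (adjusted p = 0.146). The means ran from 67.0 ± 30.5 CPM at E14.5 through 75.5 ± 19.9 at E13.5, 104 ± 26.9 at P0 and 127 ± 8.58 at E16.5 to 127 ± 19.4 at E15.5, and no neighbours in that order differed beyond their spread. Over the stages its F test gave an adjusted p of 0.0565 in edgeR and 0.0162 in DESeq2.

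*Tgfbr1*, the type I kinase, was the member called lower in late against early. The E13.5 libraries held 175, 183 and 164 CPM, those of E14.5 168, 147 and 161 CPM, those of E15.5 84.8, 121 and 118 CPM, those of E16.5 52.8, 75.6 and 100.3 CPM, and those of P0 62.4, 93.5 and 94.6 CPM. Every late library was below every early one. The late mean was 89.3 CPM against 166 CPM early, a log2 fold change of -0.91 (SE 0.14, edgeR adjusted p = 0.000122). The order of the means from the lowest was E16.5 (76.2 ± 23.8 CPM), P0 (83.5 ± 18.3), E15.5 (108 ± 20.3), E14.5 (159 ± 10.7) and E13.5 (174 ± 9.77). No neighbours in that order passed the test, though the E14.5 and E15.5 libraries did not overlap (log2 -0.55, SE 0.22, edgeR adjusted p = 0.0815).

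*Tgfbr2*, the type II receptor that binds ligand first, moved the opposite way. Levels per library were 83.1, 50.1 and 88.6 CPM (E13.5), 46.1, 77.8 and 96.6 CPM (E14.5), 117, 121 and 108 CPM (E15.5), 154, 121 and 137 CPM (E16.5), and 166, 179.9 and 116 CPM (P0). Every late library was above every early one. The late mean was 135 CPM against 73.7 CPM early, a log2 fold change of 0.87 (SE 0.18, edgeR adjusted p = 0.000915). The stage means were 73.9 ± 20.9, 73.5 ± 25.5, 115 ± 6.36, 137 ± 16.8 and 154 ± 33.9 CPM by age. None of the neighbours passed, and the E14.5 to E15.5 step had a log2 change of 0.65 (SE 0.27, edgeR adjusted p = 0.0882).

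*Tgfbr3*, the betaglycan gene, rose by about as much from a lower level. Per library it gave 35.5, 26.6 and 45.8 CPM (E13.5), 22.5, 30.4 and 38.8 CPM (E14.5), 59.6, 47.6 and 44.4 CPM (E15.5), 67.4, 75.1 and 50.6 CPM (E16.5), and 75.3, 98.03 and 56.04 CPM (P0). Of the E15.5 libraries, 1 lay below the highest E13.5 library, and otherwise the late libraries were above the early ones. The late mean was 63.8 CPM against 33.3 CPM early, a log2 fold change of 0.92 (SE 0.17, edgeR adjusted p = 0.000532). The order of the means was E14.5 (30.6 ± 8.12 CPM), E13.5 (35.9 ± 9.61), E15.5 (50.5 ± 8.003), E16.5 (64.4 ± 12.5) and P0 (76.5 ± 21.02), with no neighbours that passed. The step from E14.5 to E15.5 had a log2 change of 0.72 (SE 0.26, edgeR adjusted p = 0.0587).

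**Figure D2:**
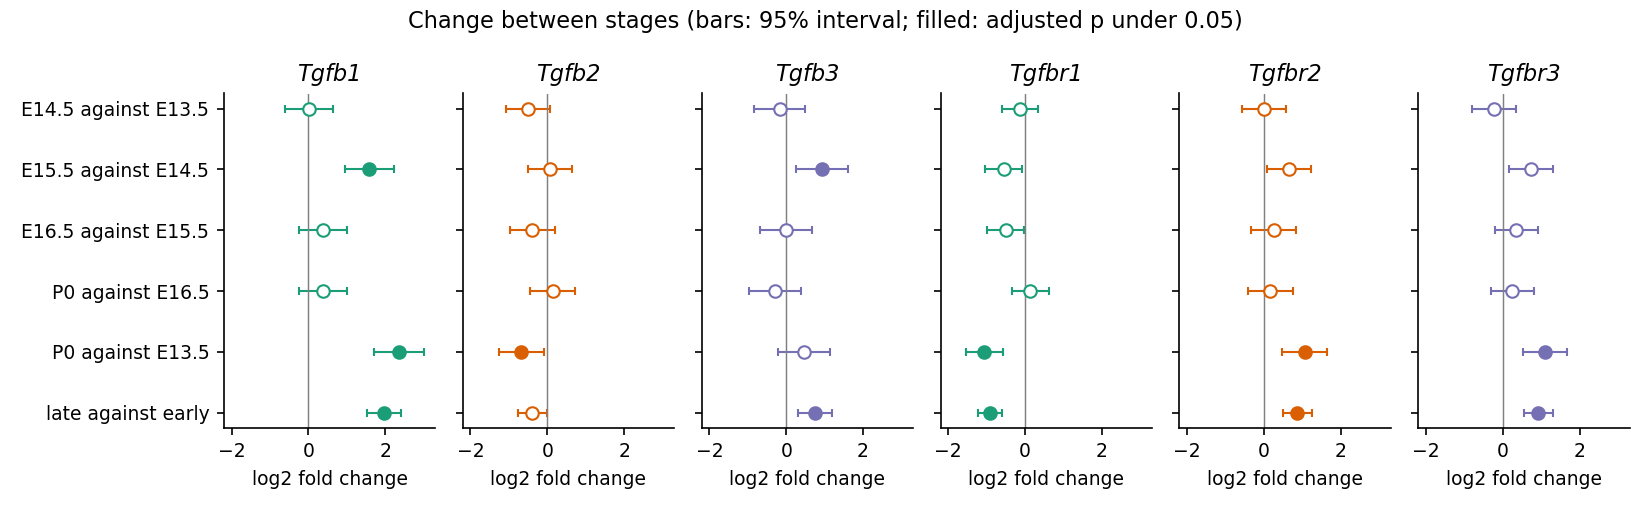
Log2 fold change of each gene (horizontal axis) with its 95% interval (bars) for 6 comparisons in rows, each the later against the earlier group, with filled points where the edgeR adjusted p was under 0.05. In the late against early row *Tgfb1* lies farthest above 0 (1.97), *Tgfbr1* lies below it (-0.91) and *Tgfb2* (-0.39) has the open point.

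Of the steps between neighbouring stages, that from E14.5 to E15.5 had called members. There 2 rose, *Tgfb1* and *Tgfb3*, and 0 fell, against 26.1% of all genes called (12.7% higher, 13.4% lower), and 5 members had an unadjusted p under 0.05. The libraries of 5 members did not overlap in that step, against 51.3% of all genes, and these shares say nothing particular to the members. The other steps were not always smaller: the log2 change of *Tgfb2* was -0.50 from E13.5 to E14.5 and 0.07 from E14.5 to E15.5, and that of *Tgfbr1* was -0.55 from E14.5 to E15.5 and -0.50 from E15.5 to E16.5. From E13.5 to E14.5 edgeR called 0 members (0 at an unadjusted p under 0.05, 0 by DESeq2), against 0.00903% of all genes. From E15.5 to E16.5 it called 0 members (1 unadjusted, *Tgfbr1*, and 0 by DESeq2), against 1.41%. From E16.5 to P0 it called 0 members (0 unadjusted, 0 by DESeq2), against 0.352%. These percentages are those of edgeR. Of the 22151 genes, DESeq2 called 1000 from E13.5 to E14.5, 2056 from E15.5 to E16.5 and 667 from E16.5 to P0. Over the whole span, P0 against E13.5, 3 members rose (*Tgfb1*, *Tgfbr2* and *Tgfbr3*) and 2 fell (*Tgfb2* and *Tgfbr1*), against 56.6% of all genes (29.8% higher, 26.8% lower). The fold changes of that span were 5.13 for *Tgfb1*, 2.08 for *Tgfbr2* and 2.13 for *Tgfbr3*, and *Tgfbr1* was 2.08-fold and *Tgfb2* 1.59-fold lower. In late against early, 3 members did not overlap between the groups (*Tgfb1*, *Tgfbr1* and *Tgfbr2*), against 25.5% of all genes, and the 5 calls there held in 22 of 22 alternatives. Of the other pairs, E15.5 against E13.5 called 2 members (22.9% of all genes), E16.5 against E13.5 5 (48.2%), E16.5 against E14.5 5 (46.2%), P0 against E14.5 4 (56.7%) and P0 against E15.5 0 (22.9%; 2 unadjusted, 1 by DESeq2). These comparisons share libraries and do not count as separate evidence.

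The 6 genes differed in level when counts were divided by the exon length in the table (FPKM). That length joins all exons of a gene and can be longer than the transcript made, so levels between genes are approximate. At E13.5 *Tgfb3* led the ligands with 22.3 ± 5.87 FPKM, followed by *Tgfb2* with 16.5 ± 3.72 and *Tgfb1* with 2.40 ± 0.586. At P0 *Tgfb3* had 30.8 ± 7.94 FPKM, *Tgfb1* 12.3 ± 4.08 and *Tgfb2* 10.3 ± 2.65. *Tgfbr1* led the receptors at E13.5 with 26.6 ± 1.50 FPKM, against 9.03 ± 2.55 for *Tgfbr2* and 5.49 ± 1.47 for *Tgfbr3*. At P0 *Tgfbr2* led with 18.8 ± 4.13 FPKM, and *Tgfbr1* (12.8 ± 2.79) and *Tgfbr3* (11.7 ± 3.21) were close to each other.

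The makeup of the ligand and receptor pools therefore shifted within each library, a measure that does not depend on how libraries are scaled. Of the summed ligand FPKM, *Tgfb1* made up 6.64 ± 1.26% in the early libraries (SD, n = 6) and 17.3 ± 4.95% in the late ones (SD, n = 9). The share of *Tgfb2* went from 37.9 ± 4.16% to 19.3 ± 4.21%, a fall by 18.6 percentage points, and that of *Tgfb3* from 55.5 ± 4.49% to 63.4 ± 6.41%. The late *Tgfb3* value came from E15.5 and E16.5 (means of 65.7% and 66.8%), since the P0 libraries, at 53.9% to 60.1%, lay within the early range of 50.001% to 61.8%. Of the summed receptor FPKM, *Tgfbr1* went from 64.8 ± 7.14% to 34.4 ± 9.25%, *Tgfbr2* from 22.5 ± 5.13% to 41.3 ± 5.46%, and *Tgfbr3* from 12.7 ± 2.32% to 24.3 ± 4.92%. All 6 differences passed a two-sided exact permutation test (5005 permutations of early and late, all enumerated), adjusted over the 6, with adjusted p = 0.000400 for *Tgfb2*, *Tgfbr1* and *Tgfbr2* (whose raw p of 0.000200 is the smallest possible), 0.000959 for *Tgfb1*, 0.000899 for *Tgfbr3* and 0.0200 for *Tgfb3*. Shares of 1 pool sum to 100%, so they are not independent of each other. The permutation ignores stage, so it treats libraries of different stages in a group as alike. Without E14.5 replicate 1 the *Tgfb3* share difference was 6.77 points with an adjusted exact p of 0.0505, so its call was lost without that library.

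The sums themselves moved less than their makeup on the receptor side. Summed receptor FPKM was 41.1 ± 2.56, 38.0 ± 3.97, 38.4 ± 2.09, 38.2 ± 1.35 and 43.3 ± 7.23 by age (SD, n = 3), and the ranges of the early and late libraries overlapped. Summed ligand FPKM was 41.2 ± 9.91, 33.9 ± 12.7, 57.2 ± 2.54, 56.2 ± 5.16 and 53.4 ± 13.2, with 1 P0 library, at 38.9, within the early range. The ratio of *Tgfbr1* to *Tgfbr2* FPKM, the signalling pair, was 3.18 ± 1.23, 3.01 ± 1.36, 1.18 ± 0.241, 0.712 ± 0.254 and 0.715 ± 0.283 by age. It lay between 2.09 and 4.58 in the early libraries and between 0.429 and 1.37 in the late ones, without overlap. The ratio of *Tgfb3* to *Tgfb1* went from 9.31 ± 0.781 at E13.5 to 2.56 ± 0.286 at P0. These sums and ratios are descriptions without a test of their own.

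**Figure D3:**
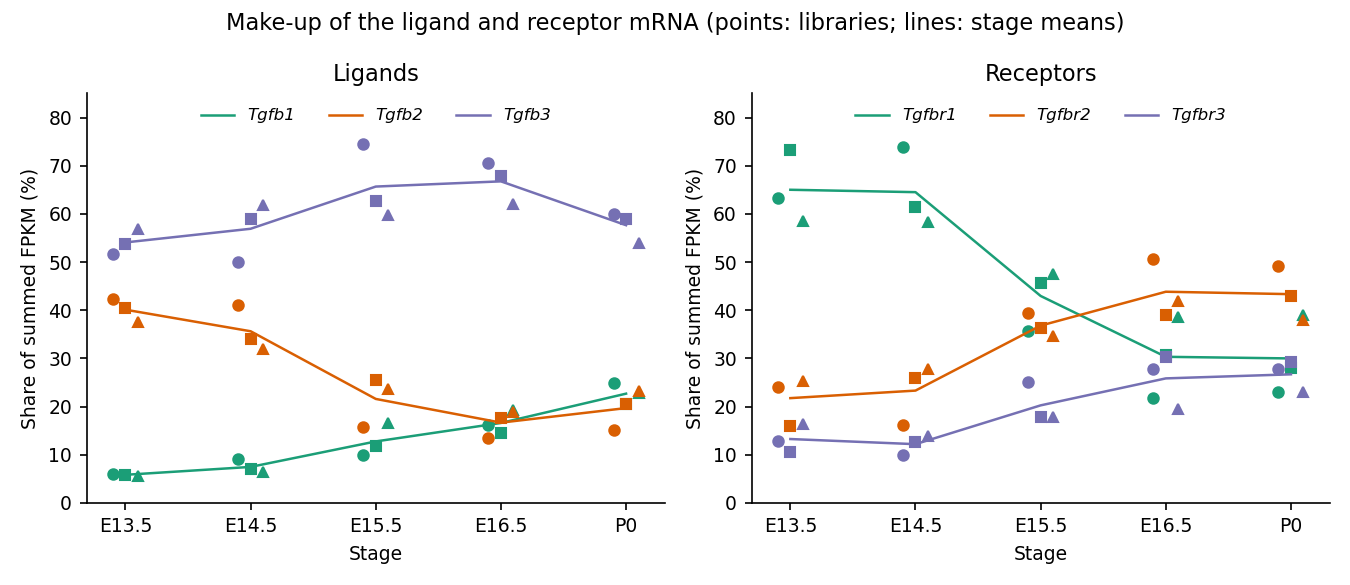
Share of the summed ligand FPKM (left) and of the summed receptor FPKM (right) held by each gene, in percent, with 1 point per library over the 5 stages (horizontal axis) and a line through the stage means. *Tgfbr1* falls from a mean of 65.0% at E13.5 to 29.98% at P0 as *Tgfbr2* rises from 21.7% to 43.3%, and *Tgfb2* falls from 40.1% to 19.7%.

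Within the early stages, 2 libraries stood apart in 5 of the 6 genes. E13.5 replicate 2 and E14.5 replicate 1 had the lowest *Tgfb1*, *Tgfb2*, *Tgfb3*, *Tgfbr2* and *Tgfbr3* of their stages and the highest *Tgfbr1*. The same 2 libraries had the lowest palatal mesenchyme sums of their stages (943 and 656 CPM), the lowest cartilage sums (1067 and 422 CPM) and the highest Schwann cell and neuron sums (1701 and 2819 CPM). The part of tissue makeup in these values was not tested.

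Marker lists of other cell types also moved between the early and late libraries. All 6 macrophage markers rose (summed level 53.9 to 102 CPM early, 169 to 483 CPM late), as did 5 of 6 osteoblast markers (1022 to 2204 CPM early, 14121 to 35086 CPM late) and 5 of 6 skeletal muscle markers. Of the 8 epithelial markers 5 rose and 0 fell, and of the 6 palatal mesenchyme markers 1 rose and 4 fell. Of 5 cartilage markers 4 fell, of 5 proliferation markers 3 fell, and of 5 ciliated-cell markers 5 rose. The endothelial list had 2 of 5 higher and 0 lower, the erythroid list 0 and 1 of 5, the Schwann cell and neuron list 2 and 1 of 5, the choroid plexus list 2 and 2 of 5, and the platelet list 1 and 1 of the 4 tested. Each direction was called in 32.2% of all genes. The part of these cell types in the members' changes was not tested.

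The genes around the ligands and receptors were counted in 6 lists in the same late against early comparison. There all tested genes had a median log2 change of 0.01, and 32.2% of them were called higher and 32.2% lower. Of 16 genes for latency and activation 8 rose, 2 fell and 6 did not pass, with a median of 0.50. *Itgb3* and *Itgb6*, integrin chains that can release ligand from its latent complex, rose by log2 2.14 (edgeR adjusted p = 5.08e-07) and 1.46 (adjusted p = 8.02e-05), and *Ltbp4*, a latent TGF-β binding protein, by 1.79 (adjusted p = 2.27e-06). *Itgb3* had means of 12.4 ± 2.12, 9.10 ± 1.64, 21.8 ± 0.864, 57.2 ± 9.58 and 83.6 ± 23.5 CPM by age (SD, n = 3). *Itgb8*, a further activating integrin chain, fell (log2 -1.24, SE 0.32, edgeR adjusted p = 0.00482), as did the fibrillin gene *Fbn2* (log2 -0.38, adjusted p = 0.0453). The *Fbn2* call was marginal: it held in 5 of 22 alternatives (adjusted p 0.00485 to 0.125), and its means by age were 535 ± 122, 352 ± 111, 494 ± 62.1, 284 ± 21.1 and 263 ± 53.97 CPM, so E15.5 was above E14.5. *Thbs1*, a matrix activator of the ligands, had a log2 change of -0.12 (95% interval -0.52 to 0.28, edgeR adjusted p = 0.570).

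Of 6 other receptors of the TGF-β and activin branch 3 rose and 3 fell. *Eng* (endoglin, a co-receptor) rose by log2 0.92 (edgeR adjusted p = 0.000293) and *Acvrl1* (Alk1, a type I receptor of endothelium) by 0.77 (adjusted p = 0.00109). The activin type II receptor genes *Acvr2b* and *Acvr2a* fell, with log2 changes of -1.97 (edgeR adjusted p = 1.47e-05) and -1.18 (adjusted p = 5.90e-05), as did the type I receptor gene *Acvr1b* (log2 -0.46, adjusted p = 0.0275). *Acvr2b* was at 29.4 ± 9.20 CPM at E13.5 and 9.56 ± 1.33 CPM at E15.5, and none of its late libraries reached the early ones. *Acvr1c* passed with a log2 change of 2.33 (SE 0.88, edgeR adjusted p = 0.0346), but its groups overlapped and its highest library was 6.02 CPM at E16.5 and 14.97 CPM at P0, with lowest libraries of 0.245 and 0.218 CPM there. It passed in 11 of 22 alternatives (log2 1.33 without E16.5 replicate 1 and 1.46 without P0 replicate 2), and *Acvr1b* in 16 of 22. The median of these 6 was 0.16.

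The intracellular transducers fell as a list of small changes. Of 10 Smad and Tak1 genes 0 rose, 9 fell and 1 (*Usp15*) did not pass, with a median log2 of -0.43. *Smad4*, the shared Smad, fell by 0.56 on the log2 scale (SE 0.10, edgeR adjusted p = 0.000460), *Smad2* by 0.55 (adjusted p = 0.000374) and *Map3k7* by 0.53 (adjusted p = 4.48e-05). *Smad4* had means of 106 ± 2.06 CPM at E13.5 and 64.8 ± 15.5 CPM at P0. With upper-quartile scaling, which moved the median of all genes to 0.09, 7 of the 10 fell.

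Among 14 negative regulators 4 rose, 5 fell and 5 did not pass (median -0.05). *Dcn* (decorin, a matrix proteoglycan that binds ligand) rose by log2 1.48 (edgeR adjusted p = 0.000144), *Bambi* (a pseudoreceptor) by 0.96 (adjusted p = 0.00266) and *Pmepa1* (which sequesters Smads) by 0.91 (adjusted p = 4.82e-06). *Tgif2* (a Smad co-repressor) fell by 1.02 on the log2 scale (edgeR adjusted p = 1.92e-06), and the ubiquitin ligase genes *Smurf1* and *Smurf2* by 0.65 (adjusted p = 6.79e-05) and 0.46 (adjusted p = 0.00106).

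Genes known to respond to TGF-β moved mostly up: of 16, 13 rose, 1 fell and 2 did not pass, with a median log2 of 1.44. Many of them are also matrix genes of bone and connective tissue, and 5 of 6 osteoblast markers rose in the same libraries. The part of osteoblasts in the rise of the response genes was not tested. Of the 16, 3 (*Skil*, *Smad7* and *Pmepa1*) are in the list of negative regulators too. *Col1a2*, a chain of type I collagen, rose by log2 2.77 (edgeR adjusted p = 1.50e-06), from 1833 ± 478 CPM at E13.5 to 15891 ± 5120 CPM at P0. *Cdkn1a*, the cell-cycle inhibitor p21, rose by 2.68 (adjusted p = 1.20e-06) and *Ltbp2*, a matrix protein of the latent binding family, by 2.65 (adjusted p = 0.000155). *Skil*, a Smad co-repressor, was the gene that fell (log2 -0.57, SE 0.16, edgeR adjusted p = 0.00698, and 0.0677 with E14.5 replicates 1 and 3 both left out).

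Of 12 genes linked to *Tgfb3* in shelf fusion 5 rose, 2 fell and 5 did not pass (median 0.18). In the step from E14.5 to E15.5 alone, 1 of them rose (*Mmp13*), 0 fell and 11 did not pass. Of all genes 26.1% were called in that step. *Mmp13*, a collagenase, was at 0.0743 to 0.621 CPM in the early libraries and at 5.33 to 459 CPM in the late ones (log2 9.22, SE 0.66, edgeR adjusted p = 6.61e-07). It is also a gene of hypertrophic cartilage and bone. *Cdh1*, the epithelial cadherin, rose by log2 1.14 (edgeR adjusted p = 0.00109) and the gelatinase gene *Mmp2* by 0.78 (adjusted p = 0.00451). *Twist1* fell by 0.79 on the log2 scale (edgeR adjusted p = 0.00204) and *Nectin1*, a cell adhesion gene of human clefting, by 0.52 (adjusted p = 0.00574). *Cdh1* is also in the list of epithelial markers and *Twist1* in that of palatal mesenchyme markers, so both were already counted there.

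**Figure D4:**
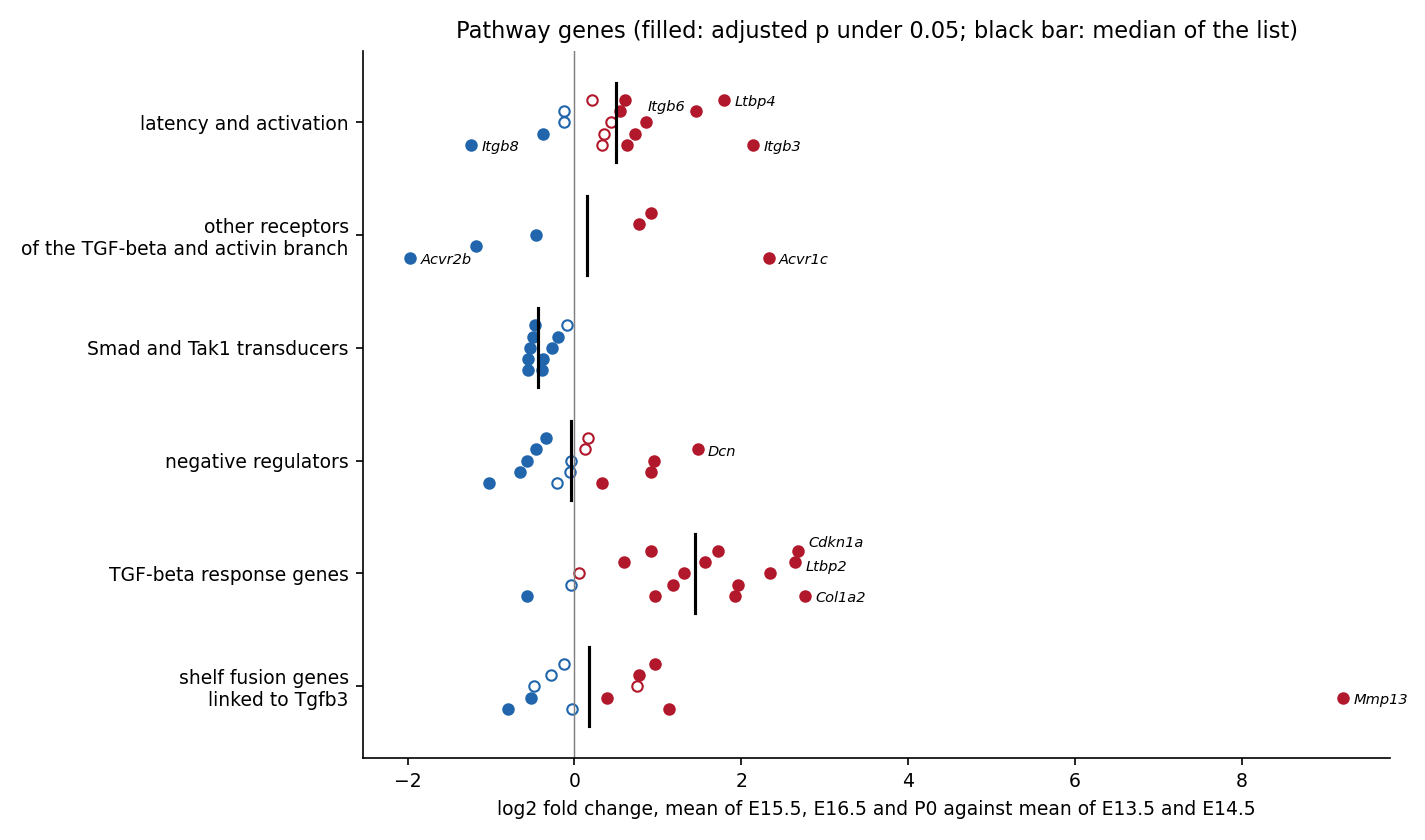
Log2 fold change, late against early libraries (horizontal axis), of the genes in each of 6 lists, with 1 point per gene, filled where the edgeR adjusted p was under 0.05, and a bar at the median of each list. Response genes lie mostly to the right of 0, with 13 of 16 higher, and transducers to the left, with 9 of 10 lower.

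The genes whose log2 CPM followed each member most closely over the 15 libraries, among those with a mean of at least 10 CPM, are given with Pearson's r as a description, since the libraries share stages. They were *Timp1* (0.991), *Col13a1* (0.985) and *Kazald1* (0.985) for *Tgfb1*, and *Tmem98* (0.933), *Tead3* (0.921) and *Snai2* (0.916) for *Tgfb2*. For *Tgfb3* they were *Marveld1* (0.974), *Rrbp1* (0.966) and *Kdelr2* (0.957). For *Tgfbr1* they were *Mbtd1* (0.988), *Polr3f* (0.983) and *Gabpb1* (0.981), and for *Tgfbr2* they were *Sh2b3* (0.984), *Ccdc80* (0.975) and *B4galt1* (0.972). For *Tgfbr3* they were *Pxn* (0.988), *Cast* (0.970) and *Klhl21* (0.963). No gene was named for more than 1 member.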

How the data were processed

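RNA of palates was sequenced in 15 libraries. The deposited values are counts per gene, which the authors made with featureCounts (Subread) 2.0.1, per the file headers, counting read pairs on the reverse strand of GENCODE M18 from adapter-trimmed, duplicate-marked alignments. The submitters' processing notes name mm10, cutadapt 3.4, FastQC 0.11.9, Bowtie2, HISAT2 2.2.1 and SAMtools 1.12, without their roles. Symbols came from GENCODE M21 for 54079 of 54232 genes.

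Counts were filtered with filterByExpr by stage (minimum count 10), scaled by TMM (CPM use the scaled totals) and modelled with edgeR 4.0.16 in R 4.3.3, each stage with its own coefficient. Quasi-likelihood F tests were adjusted by Benjamini-Hochberg over 22151 genes (threshold 0.05). The common biological coefficient of variation was 0.332. The late against early contrast compares the means of the stage coefficients. Shares were tested by exact permutation of the 15 libraries between early and late, without regard to stage. P-values of edgeR and DESeq2 measure the spread between pooled libraries of a stage. Those of the permutation take in the differences between stages of a group as well.

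The members and lists were chosen with earlier results of these data known. Named genes were the 6 members, at most 3 rises and 3 falls per list among genes past the F test over the stages, and 3 genes per member by correlation. *Usp15*, *Skil* and the overlapping genes were named after their values were seen. Alternatives were DESeq2 1.42.0, its size factors, upper-quartile scaling, other filters, a replicate block, 2 stages only and single libraries left out; the alternatives for the list counts and named pathway genes were added after seeing the data. On simulated counts with the spread of these libraries, the late against early fit over 22151 genes found 52.2% of the 67 genes given a 2-fold change, 85.1% of the 67 given 4-fold and 97.0% of the 66 given 8-fold. The E15.5 against E14.5 step found 20.9%, 64.2% and 81.8% of them. In the simulation 21951 of the 22151 genes were unchanged, while 26.1% were called in the real step. These shares therefore need not hold for the members. In that step the 95% intervals (log2) were -0.50 to 0.65 for *Tgfb2* and -1.03 to -0.08 for *Tgfbr1*. Those of *Tgfbr2* and *Tgfbr3* were 0.07 to 1.23 and 0.16 to 1.29. A 2-fold change lies within the last 3 intervals and a 4-fold change in none, so a step not passed may hide a 2-fold change.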

Additional observations from a re-analysis of the deposited data

How the results depend on the processing

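In late against early, the directions and calls of *Tgfb1*, *Tgfb3*, *Tgfbr1*, *Tgfbr2* and *Tgfbr3* were the same under all 22 alternatives. Counts of members called between other stages were less stable. Between P0 and E15.5 edgeR called 0 members (2 at an unadjusted p under 0.05, 22.9% of all genes). DESeq2 called 1 (6500 of 22151 genes) and the fit with the replicate block 1 (5215 of 22151). Leaving out a library gave 0 to 1. Between E15.5 and E13.5 edgeR called 2 members (22.9% of all genes), and 1 to 2 leaving out a library. It called 1 with upper-quartile scaling (4541 of 22151 genes), with no filter (3871 of 37998) or with a mean of at least 1 CPM (4064 of 16520). Leaving out 1 library in turn gave 3 to 6 members for E16.5 against E13.5 (5 called, 48.2% of all genes). It gave 1 to 4 for E15.5 against E14.5 (2 called, 26.1%) and 3 to 5 for E16.5 against E14.5 (5 called, 46.2%). The calls over all genes moved too, at 8231 to 11182, 2320 to 6035 and 7433 to 10712 in that order, of 22707 to 23063 tested. Leaving out both E14.5 replicates 1 and 3 (the libraries with the most choroid plexus markers) left 1 E14.5 library, assumed to vary like the others. Fewer members were then called for E15.5 and for E16.5 against E14.5, and *Skil*, the response gene that fell, did not pass. Fewer of all genes were called in these comparisons too, so the lost calls say nothing particular to the members. Of the latency genes 2 were lower, and 1 (without *Fbn2*) with DESeq2, its size factors, upper-quartile scaling, no filter, a mean of at least 1 CPM or the replicate block (1 to 2 leaving out a library). Over all genes, same-numbered libraries had r from -0.303 to 0.548 (mean 0.0594, against -0.0321 for other pairs). It was over 0.1 in 9 of 30 pairs, and 7 of 15 libraries correlated best with their own number. Proliferation marker sums rose from replicate 1 to replicate 3 at every stage (1133 to 1246 CPM at E13.5, 402 to 701 CPM at P0). With the replicate block 135 genes were called from E13.5 to E14.5, against 2 without it. Beyond that block, the part of the replicate number in the members' values was not tested.

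Shares between E15.5 and E14.5 alone differed by 5.29 points for *Tgfb1*, -14.1 for *Tgfb2*, 8.76 for *Tgfb3*, -21.6 for *Tgfbr1*, 13.5 for *Tgfbr2* and 8.06 for *Tgfbr3*, with adjusted exact p from 0.12 to 0.2, and 3 libraries against 3 cannot go below 0.1. Leaving out a library, the *Tgfb3* share difference ranged from 6.48 to 9.12.

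The sign turned only in values that passed no test. *Tgfb1* from E13.5 to E14.5 (log2 0.01) was -0.00875 with DESeq2, -0.00876 with its size factors, -0.0646 with upper-quartile scaling, -0.0265 with a mean of at least 1 CPM, -0.0316 with the 2 stages alone and -0.18 to 0.17 leaving out a library. *Tgfb3* from E15.5 to E16.5 (-0.01) was 0.0018 with DESeq2, 0.0019 with its size factors and -0.10 to 0.12 leaving out a library. *Tgfbr2* from E13.5 to E14.5 (-0.01) was 0.0540 with both E14.5 libraries left out. Leaving out 1 library gave -0.25 to 0.24 for it, -0.51 to 0.14 for *Tgfb3* from E13.5 to E14.5, -0.13 to 0.25 for *Tgfb2* from E14.5 to E15.5, -0.0863 to 0.31 for *Tgfb2* and -0.0777 to 0.38 for *Tgfbr1* from E16.5 to P0, and -0.38 to 0.0130 for *Tgfb2* from E14.5 to P0. The causes were not tested.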
